A study of Mus musculus with 6 samples.

Results

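Aminoacyl-tRNA synthetases, the enzymes that join each amino acid to its transfer RNA, were examined in mouse oocytes with and without LSM14B. They were chosen by gene symbol, with earlier results of these data known. The symbols were the letter of an amino acid followed by "ars" or "ars2", together with Eprs, Farsa, Farsb, Fars2 and Ears2. The rule found 37 of the 24255 genes of the deposited table. Of these, 18 encode cytosolic enzymes, 17 encode mitochondrial enzymes with symbols that end in 2, and the remaining 2 (Gars and Kars) encode both forms.

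RNA-Seq compared WT with Lsm14b-KO mice at the germinal vesicle (GV) stage, using pools of 20 fully-grown oocytes (FGOs) and 3 libraries per genotype. At this stage the oocyte is fully grown but still immature, and its nucleus rests in prophase of the first meiosis. The Lsm14b-KO females were homozygous for tm1a(KOMP)Mbp, a reporter-tagged insertion in Lsm14b that is not restricted to the oocyte, and WT and Lsm14b-KO mice had the same C57BL/6J background. All females of both groups had received 5 IU of PMSG, a gonadotropin that stimulates follicle growth, 46 h before collection. The age of the mice used for these libraries is not given in the sources used here, and neither is whether the libraries came from separate animals, so the p-values measure the spread between libraries, which may be technical. The values are FPKM, fragments per kilobase of transcript and per 1000000 mapped fragments, which is a level per length. Because each library is scaled to its own total, less mRNA per oocyte and fewer intact oocytes in a pool cannot be told apart.

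The cytosolic synthetases charge tRNAs for translation of nuclear-encoded mRNAs, and several of them sit together in the multisynthetase complex, which is held by the scaffold proteins AIMP1, AIMP2 and EEF1E1. The mitochondrial synthetases are encoded in the nucleus, imported, and charge the tRNAs of the mitochondrial genome. When amino acids run short or other stresses act, uncharged tRNA and related signals lower general translation, and the factor ATF4 then raises genes of amino acid supply, several cytosolic synthetases among them. Fully grown oocytes are almost silent in transcription, so their mRNAs are largely a store laid down during growth, and LSM14B belongs to a family of RNA-binding proteins found in cytoplasmic mRNP particles.

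ATF4 with a C/EBP partner binds elements that contain TGATGNAA, where N is any base. This element was looked for, on both strands, in the promoters of the synthetases, taken from RefSeq (GRCm38.p6) as 250 bases before to 50 bases after each gene's start. A promoter was matched for 27 of the 37 members, 11 cytosolic, 2 dual and 14 mitochondrial. The element was present in 5 of the 27, which were the cytosolic Aars, Iars, Tars and Yars and the dual Gars, and in 0 of the 14 mitochondrial promoters. Over all genes with a promoter in that table, 4.51% of 27025 held it. The motif was chosen after the values of these genes had been seen, and a match describes letters, not binding. The match nearest the start of each of the 5 genes is printed because Aars, Iars and Tars are among the synthetases with higher values in all Lsm14b-KO libraries. Each line gives 30 bases of the gene's own strand, 5′ to 3′, with the element in capitals (in all but Yars it lies on the opposite strand and reads as its reverse complement).
Aars, chr8:111033840-111033869, plus strand: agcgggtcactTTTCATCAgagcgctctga
Iars, chr13:49682126-49682155, plus strand: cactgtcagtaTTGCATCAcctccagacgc
Tars, chr15:11399655-11399684, minus strand: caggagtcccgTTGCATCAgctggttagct
Gars, chr6:55037960-55037989, plus strand: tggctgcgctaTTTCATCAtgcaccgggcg
Yars, chr4:129189895-129189924, plus strand: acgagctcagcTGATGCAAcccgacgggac

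The element began at base 10 after the start in Aars, at base 8 after the start in Iars, 15 bases before it in Tars, 30 bases before it in Gars and at base 4 after it in Yars. Of the 5 genes that hold it, Gars and Yars did not have higher values in all Lsm14b-KO libraries. Eprs and Hars did have such values but are not among the genes with a match. Whether they are among the members without a matched promoter is not given here. A further pair of motifs was searched in the same windows on both strands. The core promoter box TATAAA was in 3 members (Aars2, Farsa and Tars2) and in 15.7% of all genes, and the cyclic AMP element TGACGTCA was in 0 members and in 2.03% of all genes.

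Depth and cell content were checked for the libraries as a whole. The table holds no counts, but the steps between low FPKM values gave a relative depth, which corresponds, in units of 1000000 fragments, to 3.01 to 3.46 in the WT libraries and 4.07 to 7.01 in the Lsm14b-KO libraries. The targeted gene, Lsm14b, had 2.77, 3.98 and 1.72 FPKM in WT, against 0.102 FPKM in Lsm14b-KO replicate 3 and a listed value of 0 in the other Lsm14b-KO libraries. All 9 oocyte markers were above 0 in every library, but their levels differed between genotypes. The log2 difference was above 0 for 8 of the 9, with a median of 0.65, beside -0.08 over all genes tested. Only Padi6 passed the test (limma adjusted p = 0.0304, higher in Lsm14b-KO), where 6.38% of all genes tested were called higher. The 10 cumulus and granulosa cell markers summed to 9.73 to 13.5 FPKM in WT and 6.13 to 10.1 FPKM in Lsm14b-KO. Of the 10, 3 (Amh, Foxl2 and Inhba) were at 0 in all 6 libraries, and 4 (Cyp19a1, Fshr, Kitl and Nr5a2) were above 0 in all 6. Among those tested, 1 fell (Cyp19a1, at 8.26 to 11.5 FPKM in WT and most of the sum) and 0 rose. Fshr and Kitl had higher values in each Lsm14b-KO library. Their means were 0.852 and 0.223 FPKM in WT and 1.94 and 0.503 FPKM in Lsm14b-KO. The part of these markers in the results on synthetases was not tested. The 6 red blood cell markers in the table were at 0 throughout. Lsm14b-KO replicates 2 and 3 stood apart from the other libraries: their FPKM values summed to 564671 and 676656, against 1029728 to 1244182 in the other 4 libraries.

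Most synthetase mRNAs were close to the detection limit in these oocytes, and a single mitochondrial enzyme made up most of the family's signal. At least 1 FPKM in at least 1 library was reached by 8 of the 37 members (21.6%), against 26.4% of all genes in the table. These were the cytosolic Dars, Farsb, Iars, Nars, Rars and Sars and the mitochondrial Fars2 and Lars2. WT libraries held 20, 27 and 24 members above 0, and the deeper Lsm14b-KO libraries held 26, 30 and 32. In all 6 libraries, 14 members were above 0: 12 of 18 cytosolic, 1 of 2 dual and 1 of 17 mitochondrial.

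Fars2, which charges the mitochondrial phenylalanine tRNA, was the most abundant member in every library. It lies at chr13:36117412-36726280 on the plus strand (GRCm38) and was at 66.7, 64.6 and 51.4 FPKM in WT replicates 1, 2 and 3 and at 98.8, 48.3 and 75.9 FPKM in the Lsm14b-KO replicates. The Lsm14b-KO libraries lay on both sides of the WT libraries. Fars2 alone held 62.9% to 73.8% of the summed FPKM of the 37 members in WT and 56.5% to 76.9% in Lsm14b-KO. Its mean level was 60.9 ± 8.30 FPKM in WT (SD, n = 3), and the fit gave a log2 difference of 0.23 (adjusted p = 0.615). This depended on the scaling. With each library scaled to the same sum (TPM), Fars2 was at 45.0 to 55.1 in WT and 85.5 to 112 in Lsm14b-KO, and the log2 difference was 0.92 (adjusted p = 0.0342), where the median of all genes was 0.40. Its first 115 nt match Lyrm4, a gene on the opposite strand, and strandedness is not given in the sources used here. Lyrm4 was at 14.3 to 23.3 FPKM in WT and 11.4 to 29.6 FPKM in Lsm14b-KO.

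**Figure D1:**
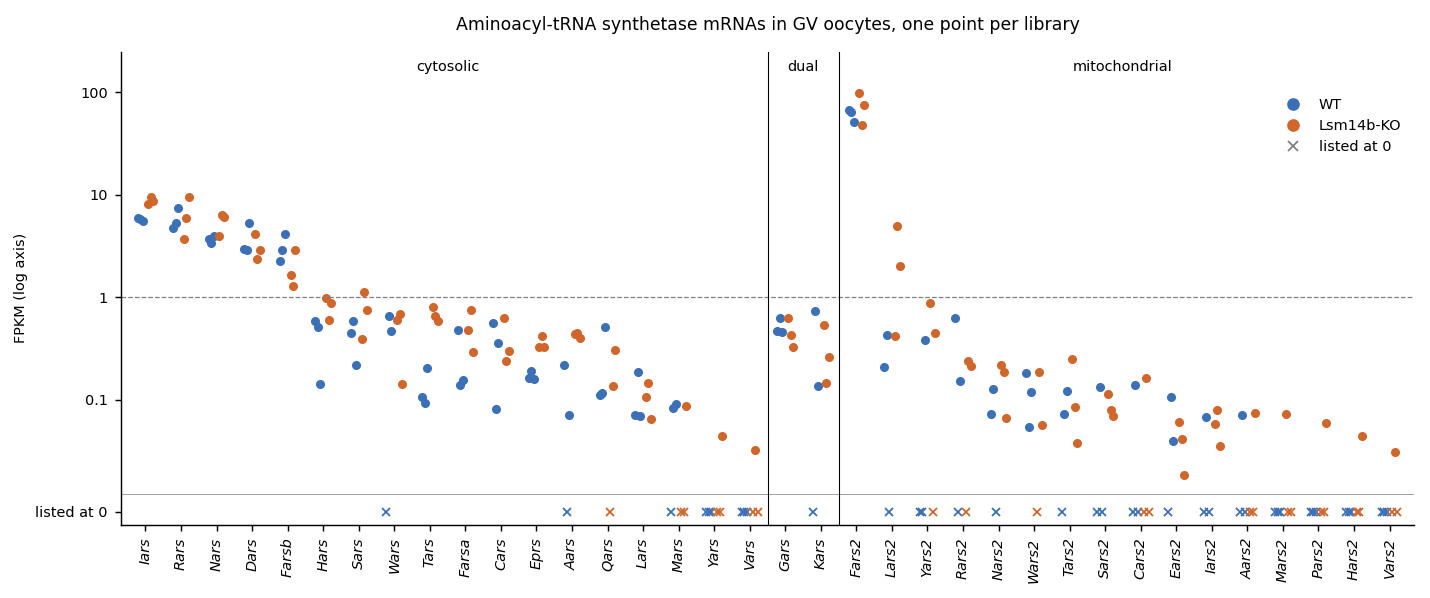
FPKM of 36 of the 37 synthetase genes (log axis), ordered by class and mean level, with 1 point per library (blue, WT; orange, Lsm14b-KO; crosses, listed at 0; dashed line, 1 FPKM). Fars2 lies at 48.3 to 98.8 FPKM in all libraries, while 28 of the genes shown stay under 1 FPKM in every library.

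Among cytosolic synthetases, the arginine enzyme gene Rars had the highest WT mean, 5.81 ± 1.43 FPKM (SD, n = 3), followed by the isoleucine enzyme gene Iars at 5.75 ± 0.145. Dars (aspartate) at 3.72 ± 1.38, Nars (asparagine) at 3.70 ± 0.286 and Farsb (1 of the subunits of the phenylalanine enzyme) at 3.07 ± 0.953 FPKM came next. Rars and Iars, and likewise Dars, Nars and Farsb, differed from their neighbours by less than the larger of the SDs. The next members, Gars (glycine) at 0.517 ± 0.0897 FPKM, which is the higher of the dual genes, and Sars (serine) at 0.418 ± 0.188 FPKM, lay below 1 FPKM. The phenylalanine enzyme of the cytosol needs both FARSA and FARSB, and the mRNAs of the subunits were at unequal levels, with Farsa at 0.140 to 0.482 FPKM in WT where Farsb was at 2.23 to 4.11 FPKM. The last 250 nt of Farsb overlap Sgpp2 on the opposite strand, and both genes share a locus in the deposited table.

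The question of the comparison was which mRNAs differ in oocytes without LSM14B. No member among the 8 that could be tested passed an adjusted p of 0.05 in limma, against 21.6% of the 6398 genes tested (6.38% higher and 15.2% lower in Lsm14b-KO). At an unadjusted p under 0.05, 2 of the 8 passed (Iars and Lars2), against 39.4% of all genes tested. Lars2 and Sars reached 1 FPKM only in Lsm14b-KO libraries, so the filter itself favours a higher level in Lsm14b-KO for both. The other 6 had a median log2 difference of 0.15, beside -0.08 over all genes tested, which include genes that passed the filter in the same way. Only 1 of the 8, Iars, had groups that did not overlap, against 45.0% of all genes tested. A p that misses the threshold does not show that a level was the same in both genotypes.

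Iars lies at chr13:49682100-49734267 on the plus strand and encodes a multisynthetase complex enzyme. Its WT values were 5.87, 5.79 and 5.59 FPKM, and its Lsm14b-KO values were 8.12, 9.48 and 8.76 FPKM. Every Lsm14b-KO value lay above every WT value, and the SD of the WT libraries was only 0.145 FPKM. The log2 difference was 0.53 ± 0.20 (SE), with an adjusted p of 0.0948. Iars passed the threshold in 3 of 16 alternatives. These were TPM scaling, quantile normalization and the fit without Lsm14b-KO replicate 1, with adjusted p values of 0.0378, 0.0438 and 0.0353. The last of them called 45.3% of all genes tested. With the length and GC correction the adjusted p was 0.222, and with the replicate block it was 0.163. The Iars level is uncertain to the extent that reads were split with its processed pseudogene Gm4849, which matches 1656 nt of an Iars transcript at 96.0% identity.

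Lars2, which charges the mitochondrial leucine tRNA, lies at chr9:123366927-123462666 on the plus strand. Its WT values were 0.208, 0.426 and 0 FPKM, and its Lsm14b-KO values were 0.418, 4.98 and 2.01 FPKM. The high values were those of Lsm14b-KO replicates 2 and 3, and Lsm14b-KO replicate 1 lay within the WT range. Lars2 was tested only because it reached 1 FPKM in those 2 libraries. The log2 difference was 1.30 ± 0.47 (SE; adjusted p = 0.0822). Without Lsm14b-KO replicate 1 the adjusted p was 0.00526, in a fit that called 45.3% of all genes tested. Without Lsm14b-KO replicates 2 and 3 the log2 difference was 0.24. Rn45s, the ribosomal RNA precursor, was also highest in those 2 libraries, at 383, 423 and 549 FPKM in WT and 315, 2248 and 1606 FPKM in Lsm14b-KO. Elsewhere the genes did not go together: WT replicate 3, with Rn45s at 549 FPKM, had Lars2 at 0. Genes such as Bmp15 and Zp2 were likewise highest in those 2 libraries. Bases 3278 to 3349 of the 3894 nt Lars2 transcript match Gm15564, an antisense transcript in the annotation, at 98.6% identity. The part of Rn45s or Gm15564 in the Lars2 result was not tested.

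**Figure D2:**
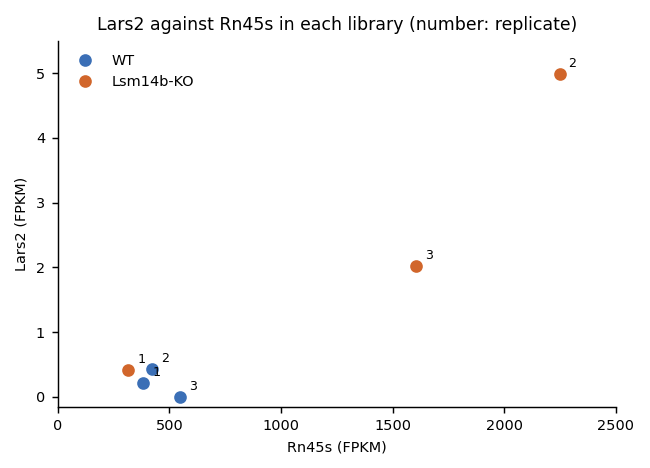
Lars2 FPKM (vertical axis) against Rn45s FPKM (horizontal axis) in each library, with the replicate number beside each point (blue, WT; orange, Lsm14b-KO). Lsm14b-KO replicates 2 and 3 lie apart at 4.98 and 2.01 FPKM of Lars2, and the other 4 libraries lie at 0 to 0.426 FPKM.

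The other 5 tested members showed overlapping groups. Nars was at 3.69, 3.41 and 3.99 FPKM in WT and at 3.96, 6.33 and 6.01 FPKM in Lsm14b-KO (log2 difference 0.43, adjusted p = 0.187). Lsm14b-KO replicate 1 was within the WT range for Nars. The call was made without that library (adjusted p = 0.0326), where 45.3% of all genes tested were called. Farsb was at 2.23, 2.87 and 4.11 FPKM in WT and at 1.64, 1.28 and 2.89 FPKM in Lsm14b-KO (log2 difference -0.48, adjusted p = 0.219), a sign that was lost under TPM scaling (0.0038). The 3 remaining members, Dars, Rars and Sars, had log2 differences of -0.18, 0.06 and 0.29, and each changed sign under at least 1 alternative. Rars reached 9.51 FPKM in Lsm14b-KO replicate 3 and 3.74 FPKM in replicate 1, a wider range than the 4.71 to 7.42 FPKM of WT. Sars was at 0.448, 0.589 and 0.218 FPKM in WT and at 0.394, 1.11 and 0.757 FPKM in Lsm14b-KO, and was tested only because it reached 1 FPKM in Lsm14b-KO replicate 2.

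**Figure D3:**
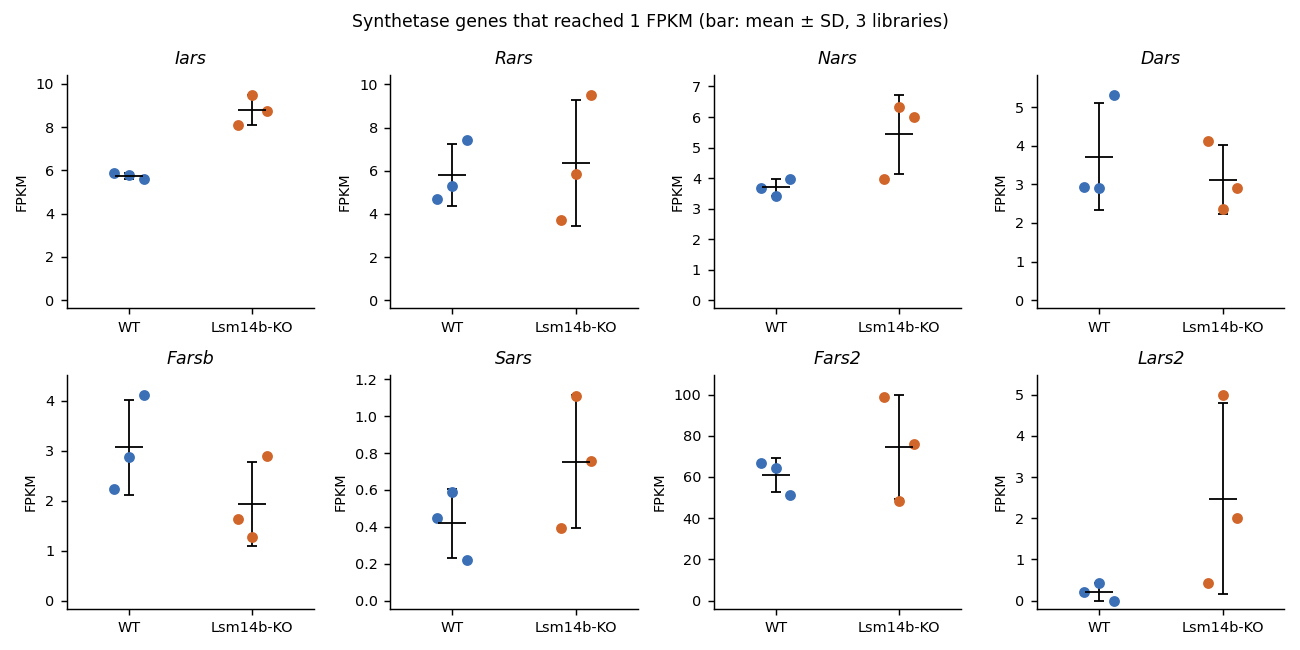
FPKM in each library of the 8 synthetase genes that reached 1 FPKM (blue, WT; orange, Lsm14b-KO; black bars, mean ± SD of 3 libraries; each panel has its own axis). The groups are apart for Iars, at 5.59 to 5.87 against 8.12 to 9.48 FPKM, and overlap in the other 7 panels.

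The 29 members under 1 FPKM were described from their values in all libraries, and in a fit with no filter on low values. Over all 37 members, 5 had higher values in each Lsm14b-KO library than in any WT library, namely Aars, Eprs, Hars, Iars and Tars, and 0 had lower values in each. Over the 14325 genes above 0 in at least 1 library, 14.5% were higher in this way and 13.8% were lower. The 5 are 13.5% of the members, near the share over all genes. Of the 29 members under 1 FPKM, 4 (13.8%) were higher in this way, against 10.9% of all genes above 0 that stayed under 1 FPKM, of which 4.0% were lower. All 5 were cytosolic, so 5 of 18 cytosolic and 0 of 17 mitochondrial members had groups that did not overlap. The classes differed in level, with a median highest FPKM of 0.712 for cytosolic and 0.133 for mitochondrial members. A gene listed at 0 in a Lsm14b-KO library cannot be higher in this way, so class and level cannot be told apart here. In the fit with no filter, 0 of the 37 passed an adjusted p of 0.05 in limma, against 5.03% of all genes, and 5 had an unadjusted p under 0.05. The lowest adjusted p values were 0.0522 for Tars and 0.0817 for Aars.

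Tars, the cytosolic threonine enzyme gene at chr15:11382301-11399665 on the minus strand, was at 0.106, 0.0926 and 0.205 FPKM in WT and at 0.795, 0.651 and 0.583 FPKM in Lsm14b-KO. The lowest Lsm14b-KO value was more than the highest WT value by 0.378 FPKM. Aars, the cytosolic alanine enzyme gene at chr8:111033144-111057664 on the plus strand, was at 0.218, 0 and 0.0706 FPKM in WT and at 0.438, 0.448 and 0.402 FPKM in Lsm14b-KO. The last 1326 nt of the longest annotated Aars transcript are shared with Exosc6, a gene on the same strand. The deposited Aars locus ends at base 111055569, short of the annotated gene end, and is shared with 0 other genes. Whether reads of the shared stretch entered the Aars values was not tested. Eprs, which encodes the joint glutamate and proline enzyme of the multisynthetase complex and lies at chr1:185363044-185428360 on the plus strand, was at 0.164, 0.192 and 0.159 FPKM in WT and at 0.329, 0.420 and 0.327 FPKM in Lsm14b-KO. Hars, the cytosolic histidine enzyme gene, was at 0.583, 0.510 and 0.141 FPKM in WT and at 0.984, 0.599 and 0.869 FPKM in Lsm14b-KO. The groups of Hars were separated by only 0.0152 FPKM, while those of Tars, Aars and Eprs were apart by more than the SD of either group.

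These values rest on few fragments. For 21 of the 37 members the low FPKM values were whole multiples, within 0.1, of the value of 1 fragment, and the numbers of fragments could be recovered. Of the other 16 members, 6 were above 0 in 1 library only, which leaves nothing to compare, and 10 gave no whole numbers up to 30 fragments. The recovery is weak for the 3 resolved members that were above 0 in only 2 libraries. Tars had 1, 1 and 2 fragments in WT and 10, 12 and 12 in Lsm14b-KO. Per unit of depth the sum was 4.94 times as high in Lsm14b-KO, with an exact 95% interval of 1.76 to 19.2. Aars had 3, 0 and 1 against 8, 12 and 12 fragments, a ratio of 4.65 (1.65 to 18.1). For Eprs, with 3, 4 and 3 against 8, 15 and 13 fragments, the ratio was 2.09 (1.02 to 4.73), and for Hars, with 4, 4 and 1 against 9, 8 and 13, it was 1.94 (0.898 to 4.64). The intervals cover counting error only, not the spread between libraries, and amplified cDNA fragments are not independent molecules.

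Summed by class, the 9 resolved cytosolic members had 68 fragments in WT and 238 in Lsm14b-KO, a ratio of 2.04 per unit of depth. The 11 resolved mitochondrial members had 29 and 68 fragments (1.36), and Kars, the lysine gene, had 7 and 11 (0.914). The cytosolic sum includes Tars, Aars, Eprs and Hars, which were singled out for their higher values. They held 4, 4, 10 and 9 of the WT fragments and 34, 32, 36 and 30 of those in Lsm14b-KO. The same ratio was not taken over all low genes, so the class ratios have no background beside them. The intervals of the mitochondrial members all included 1. None of these mitochondrial members had more than 8 fragments in any library.

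**Figure D4:**
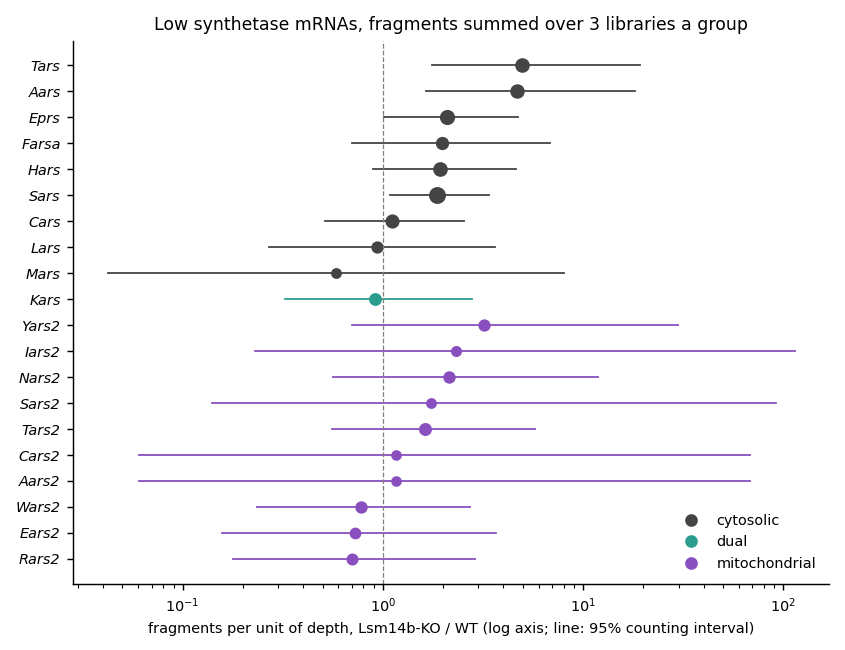
Ratio of Lsm14b-KO to WT fragments per unit of depth (log axis), summed over 3 libraries a group, for 20 low synthetase mRNAs whose fragments could be recovered and were above 0 in WT (points, larger with more fragments; lines, exact 95% counting intervals; dashed line, a ratio of 1). The intervals of Tars, Aars, Eprs and Sars lie above 1, and those of the other 16 genes include it.

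At least 1 library listed 23 members at 0, which were 6 of 18 cytosolic, 1 of 2 dual and 16 of 17 mitochondrial genes. Among cytosolic genes, Wars (tryptophan) and Qars (glutamine) were each at 0 in 1 library, WT replicate 1 and Lsm14b-KO replicate 1, and reached 0.681 and 0.513 FPKM elsewhere. Mars (methionine) was at 0 in 3 libraries and at most at 0.0908 FPKM. It shares a locus in the table with the stress gene Ddit3 on the opposite strand, which was at 418 to 429 FPKM in WT and 200 to 729 FPKM in Lsm14b-KO. Yars (tyrosine) and Vars (valine) were above 0 in a single library each, at 0.0443 FPKM in Lsm14b-KO replicate 3 and 0.0325 FPKM in Lsm14b-KO replicate 2. Kars was at 0, 0.741 and 0.137 FPKM in WT and at 0.530, 0.145 and 0.259 FPKM in Lsm14b-KO, with overlapping groups.

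The mitochondrial genes apart from Fars2 and Lars2 stayed under 1 FPKM. With Lars2 their sum was 1.09, 1.19 and 0.809 FPKM in WT and 2.13, 6.11 and 3.14 FPKM in Lsm14b-KO, and Lars2 held 81.5% and 64.1% of it in Lsm14b-KO replicates 2 and 3. Yars2 (tyrosine) was at 0, 0 and 0.379 FPKM in WT and at 0.882, 0 and 0.449 FPKM in Lsm14b-KO, and Rars2 (arginine) was at 0.625, 0 and 0.151 against 0, 0.241 and 0.215 FPKM. Neither had separate groups. Nars2, Wars2, Tars2 and Ears2 were each above 0 in 5 libraries and at most at 0.217, 0.188, 0.250 and 0.106 FPKM. Iars2 and Sars2, above 0 in 4 libraries each, reached 0.0786 and 0.133 FPKM. Cars2 and Aars2 were above 0 in 2 libraries each and reached 0.163 and 0.0748 FPKM. Hars2, Mars2, Pars2 and Vars2 were above 0 in a single Lsm14b-KO library each, at 0.0440, 0.0725, 0.0589 and 0.0309 FPKM. In a table without counts a 0 can also be a failed estimate, and the Lsm14b-KO libraries were deeper.

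Summed by class, the cytosolic members were at 22.2, 22.9 and 28.9 FPKM in WT and at 26.3, 30.5 and 34.2 FPKM in Lsm14b-KO, with overlapping groups. All 37 together were at 90.5, 90.0 and 81.6 FPKM in WT and 128, 85.5 and 114 FPKM in Lsm14b-KO. As a share of the library's FPKM sum the family took 72.7, 76.8 and 71.5 FPKM per 1000000 in WT and 125, 151 and 168 in Lsm14b-KO, where the groups did not overlap. The FPKM sum of the library, which divides this share, was lower in each Lsm14b-KO library than in any WT library.

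Mitochondrial and cytosolic enzymes for the same amino acid were to be compared within libraries. The planned pairing needed 1 cytosolic and 1 mitochondrial gene for an amino acid, both reaching 1 FPKM, and 0 pairs met it. Fars2 and Farsb both reached 1 FPKM, but Farsb encodes only a subunit of the cytosolic enzyme. The ratio of Fars2 to Farsb was taken in place of the planned test after the values had been seen. The FPKM ratio was 29.9, 22.5 and 12.5 in WT and 60.2, 37.7 and 26.3 in Lsm14b-KO. The ranges overlapped, since WT replicate 1 exceeded Lsm14b-KO replicate 3. With 1 FPKM added to both genes the log2 ratio was 0.72 higher in Lsm14b-KO (two-sided exact permutation test, p = 0.20, where 0.10 is the smallest p that 3 against 3 libraries allow).

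The 8 enzymes of the multisynthetase complex were divided in the same way. Dars, Iars and Rars were tested and 0 passed, with log2 differences of -0.18, 0.53 and 0.06, and Eprs, Lars, Mars, Qars and Kars stayed under 1 FPKM. Of the 8, Iars and Eprs had groups that did not overlap, both higher, beside 14.5% of all genes above 0. By catalytic class, 3 of 19 class I and 5 of 18 class II members were tested, and 0 of either passed.

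Partners of the synthetases in tRNA charging were read from a list of 23 genes. Of these, 22 were in the table and 13 were tested: 4 fell (Eef1e1, Trnt1, Sepsecs and Aimp1), 0 rose and 9 did not pass. Of all genes tested, 15.2% fell and 6.38% rose by the same test. Over the 22, groups that did not overlap were higher in Lsm14b-KO for 4 genes and lower for 4. Of all genes above 0 in at least 1 library, 14.5% were higher in this way and 13.8% were lower. The median log2 difference of the 13 was -0.09, near the -0.08 of all genes tested. The difference between these genes and the synthetases was not tested.

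Eef1e1, a scaffold gene of the multisynthetase complex at chr13:38644207-38659058 on the minus strand, was at 1524, 1289 and 1012 FPKM in WT and at 215, 45.2 and 67.3 FPKM in Lsm14b-KO. The highest Lsm14b-KO value was far below the lowest WT value. Its mean fell from 1275 ± 257 to 109 ± 92.3 FPKM (SD, n = 3), a log2 difference of -3.84 ± 0.55 (SE; limma adjusted p = 0.00473). The other scaffold genes did not move alike. Aimp1, at chr3:132660499-132684370 on the minus strand, was at 16.0, 19.7 and 9.36 FPKM in WT and at 8.57, 1.06 and 3.22 FPKM in Lsm14b-KO (log2 difference -1.82, adjusted p = 0.0470), and the groups were apart by 0.788 FPKM. The call for Aimp1 held in 3 of 16 alternatives, with adjusted p values from 0.00424 to 0.357. Aimp2 had overlapping groups at 13.7 to 18.8 FPKM in WT and 13.5 to 22.4 FPKM in Lsm14b-KO (log2 difference 0.03, adjusted p = 0.936), and 488 nt of it overlap Eif2ak1 on the opposite strand.

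Trnt1 adds the CCA end to which every amino acid is joined, and lies at chr6:106769120-106782474 on the plus strand. It was at 23.5, 16.5 and 16.9 FPKM in WT and at 3.73, 2.18 and 2.99 FPKM in Lsm14b-KO. The groups were well apart, and the log2 difference was -2.33 ± 0.26 (SE; limma adjusted p = 0.00197). Trnt1 shares its locus in the table with Crbn on the opposite strand, and 671 nt of it match a retained-intron transcript of Riok3 at 97.2% identity. Sepsecs, which makes selenocysteine on its tRNA from the serine that Sars attaches, lies at chr5:52640087-52669708 on the minus strand. It was at 36.9, 41.1 and 30.5 FPKM in WT and at 15.5, 7.24 and 7.71 FPKM in Lsm14b-KO (log2 difference -1.80 ± 0.33, SE; adjusted p = 0.0108). All 3 Lsm14b-KO libraries were below WT, with replicate 1 the nearest. Eef1e1 and Trnt1 passed in all 16 alternatives and Sepsecs in 13 of 16.

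**Figure D5:**
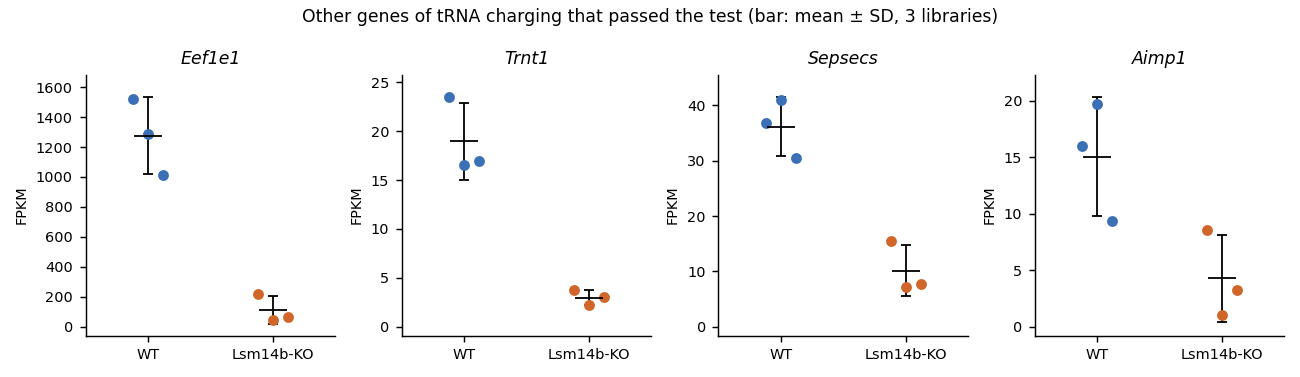
FPKM in each library of the 4 other tRNA charging genes that passed the test (blue, WT; orange, Lsm14b-KO; black bars, mean ± SD of 3 libraries; each panel has its own axis). All Lsm14b-KO libraries lie below all WT libraries in each panel, from 45.2 to 215 against 1012 to 1524 FPKM for Eef1e1 to 1.06 to 8.57 against 9.36 to 19.7 FPKM for Aimp1.

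The remaining 9 tested genes of this group did not pass. Lage3, part of the complex that modifies tRNAs read by ANN codons, was at 5.20, 1.78 and 6.89 FPKM in WT and 15.2, 7.71 and 7.65 FPKM in Lsm14b-KO, with groups that did not overlap (log2 difference 1.06, adjusted p = 0.111). Lage3 passed under TPM scaling (adjusted p = 0.0290) and with the length and GC correction (0.0204). Prorsd1 was at 5.57 to 7.98 FPKM in WT and 1.54 to 5.89 FPKM in Lsm14b-KO (log2 difference -1.07, adjusted p = 0.0848). It passed without Lsm14b-KO replicate 1 (adjusted p = 0.00205), as did 45.3% of all genes tested. The other genes named for selenocysteine synthesis, Pstk and Sephs2, had log2 differences of -0.09 and 0.51 with adjusted p values of 0.856 and 0.354.

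Genes of the integrated stress response and amino acid supply were read for comparison with the cytosolic synthetases. Of 23, 9 were tested: 1 rose, 0 fell and 8 did not pass, where 6.38% of all genes tested rose and 15.2% fell. The median log2 difference of the 9 was -0.07, near the -0.08 of all genes tested. The gene that rose was Slc3a2, the heavy chain of several amino acid transporters, at 3.06, 3.53 and 3.41 FPKM in WT and 5.33, 10.8 and 6.77 FPKM in Lsm14b-KO (log2 difference 0.94, adjusted p = 0.0421, past the threshold in 8 of 16 alternatives). Atf4 was at 2.58, 3.92 and 2.89 FPKM in WT and at 4.33, 12.3 and 5.97 FPKM in Lsm14b-KO. Its groups did not overlap, but the test was not passed (log2 difference 0.95, adjusted p = 0.0849). The test was passed in 2 of 16 alternatives, of which 1 was the fit without Lsm14b-KO replicate 1 (adjusted p = 0.0188). That fit called 45.3% of all genes tested. Some ATF4 targets stayed low, with Asns, Trib3, Chac1 and Psat1 at 0.396 FPKM or less in every library and Sesn2 at 0 in all 6. Mthfd2, also on this list, was at 9.92 to 13.8 FPKM in WT and 8.48 to 12.4 FPKM in Lsm14b-KO. Its log2 difference was -0.06 (limma adjusted p = 0.875). Slc7a11, the cystine transporter, was at 5.00 to 7.29 FPKM in WT and 5.65 to 5.92 FPKM in Lsm14b-KO (log2 difference -0.07, adjusted p = 0.813), and Ddit3 had overlapping groups with a log2 difference of -0.21 (adjusted p = 0.743). Shmt2 and Eif2s1 had lower values in each Lsm14b-KO library without passing the test (adjusted p = 0.0984 and 0.117). Both passed without Lsm14b-KO replicate 1 (0.0337 and 0.00928), as did 45.3% of all genes tested.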

How the data were processed

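Total RNA of pooled oocytes was amplified by Smart-seq2, which primes on poly(A) tails. The submitters' notes and text name more than 1 library kit. The authors aligned the reads to mm10 with TopHat2 (2.0.13), and the deposited FPKM values come from Cufflinks (2.2.1). The annotation is not given in the sources used here. The table also holds the authors' own log2 fold changes, p-values and q-values, which were not used, and 0 further columns of samples were left out.

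The members and gene lists were chosen with earlier results of these data known. FPKM was transformed to log2(FPKM + 1), so a fold change of a low gene is understated. The 6398 genes that reached 1 FPKM in any of the 6 libraries were fitted with limma 3.58.1 in R 4.3.3 (trend, genotype only, two-sided, Benjamini-Hochberg over all of them, threshold 0.05). No count model was fitted to FPKM, although whole fragments were recovered for low synthetase genes (tolerance 0.1, at most 30 fragments; scipy 1.17.1 for exact intervals and permutation). The planned pairing gave no testable pair. Named in full were members past the threshold, the highest WT level of each class, and members listed at 0 in a library. Members whose groups did not overlap, all tested members, and partner genes were added after their values were seen. Positions and lengths are from GENCODE vM21 (GRCm38, the assembly of mm10). Copies were searched with blastn 2.17.0 among its transcripts (at least 95% over at least 200 nt, or over 50 nt for Lars2). The deposited locus was shared with another gene for 7 of the 37 members. The fit was tested on simulated data. Alternatives were other pseudocounts, filters, scalings, a length and GC correction, a fit with no trend, a replicate block, and each library left out. The values of 1 member and 1 further promoter match are not reported here.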

Additional observations from a re-analysis of the deposited data

How the results depend on the processing

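Most settings tested 8 of the 37 members, while 37 were tested with no filter and 3 with a mean of at least 5 FPKM. Of the members tested, 0 passed under a pseudocount of 0.1 or 0.01 FPKM, with no filter or with a mean of at least 5 FPKM. The same held with the length and GC correction and with no intensity trend. TPM scaling called 2 (Fars2, adjusted p = 0.0342, and Iars), quantile normalization 1 (Iars) and the replicate block 1 (Lars2, adjusted p = 0.0461). In the same order, these settings called 20.6%, 19.9% and 19.4% of all genes tested. Atf4 also passed with the replicate block (adjusted p = 0.0479). TPM scaling moved the median log2 difference of all genes from -0.08 to 0.40, against 1.15 for Iars and 0.92 for Fars2. Leaving out 1 library gave 0 to 3 calls, and the 3 (Iars, Lars2 and Nars) came without Lsm14b-KO replicate 1. That fit called 3 of 8 members tested and 45.3% of all genes tested. Without Lsm14b-KO replicates 2 and 3, chosen after seeing the data, 0 passed. Over all genes, 1383 passed, and 1319 did so under TPM scaling and 1275 under quantile normalization. The count was 720 with no filter, 862 with a mean of at least 5 FPKM, 1244 with the replicate block, 315 to 2898 with 1 library left out (396, 397 and 462 without WT replicates 1, 2 and 3, and 2898, 865 and 315 without those of Lsm14b-KO), and 646 without Lsm14b-KO replicates 2 and 3. Calls that were higher made up 29.5%, against 63.2% under TPM scaling, 42.4% under quantile normalization and 41.2% with the length and GC correction.

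Libraries with the same replicate number did not deviate together (correlations 0.19, -0.13 and 0.02 for numbers 1, 2 and 3), so the numbers were not taken as pairs. Signs turned for some members and partners. Under TPM scaling Dars was at 0.35, Farsb at 0.0038 and Eif2s1 at 0.0060, and with the length and GC correction Dars was at 0.12. Leaving out 1 library gave Dars values from -0.34 to 0.052, Rars values from -0.24 to 0.34 and Aimp2 values from -0.16 to 0.18, with turned signs for Dars without WT replicate 3, for Rars without WT replicate 1 (-0.06) or Lsm14b-KO replicate 3, and for Aimp2 without WT replicate 3 (-0.09) or Lsm14b-KO replicate 1. Without Lsm14b-KO replicates 2 and 3, Dars was at 0.16, Rars at -0.50 and Sars at -0.017. The Fars2 to Farsb log2 ratio stayed between 0.42 and 0.94. Sepsecs lost its call without WT replicate 1, WT replicate 2 or Lsm14b-KO replicate 3 (adjusted p of 0.0618, 0.0630 and 0.0644). Aimp1 and Slc3a2 kept their calls only without Lsm14b-KO replicate 1 among the fits with 1 library left out, with adjusted p values of 0.0944 to 0.156 and 0.0783 to 0.148 in the others. The cause of these changes was not tested. Leaving out a library leaves fewer samples. Depth limits the members under 1 FPKM, where 1 fragment can decide whether groups overlap.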
